A study of Homo sapiens with 3 samples.

Results

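The peroxiredoxin genes PRDX1 to PRDX6, the superoxide dismutase genes SOD1 and SOD2, the catalase gene CAT and the thioredoxin gene TXN were described in HEK293T cells. They were chosen by name, by summing the deposited level of every transcript listed under each of these symbols, and made up 10 of the 35880 gene symbols in the table. HEK293T is an established line of human embryonic kidney origin that expresses the large T antigen of SV40. The cells had no treatment, grew in high-glucose DMEM with 10% serum and were harvested at 70% confluence. Polyadenylated RNA went into 3 directional libraries, labelled as biological replicates 1, 2 and 3 of a single group with no comparison group. Nothing says that they came from separate cultures. The p-values below therefore rest on a spread that may be technical.

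Superoxide, a by-product of respiration, is turned into hydrogen peroxide by superoxide dismutases, a copper and zinc enzyme in the cytosol and a manganese enzyme in the mitochondrial matrix. Peroxide is then removed by catalase in peroxisomes and by peroxiredoxins, thiol enzymes that attack it with a peroxidatic cysteine. Most peroxiredoxins are returned to their active form by thioredoxin, which draws electrons from NADPH through thioredoxin reductase, so the members form a relay.

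Levels are in TPM, abundance per unit of transcript length scaled to a fixed total, and are given as mean ± SD over the 3 libraries (n = 3). The deposited table also held 1 column of estimated reads, which summed to 33184885, named no library and matched the TPM of replicate 1. In that column the members had between 1086 reads (CAT) and 19910.3 reads (PRDX1), which bears on replicate 1 alone. All 7 markers listed for HEK293T lay above 1 TPM, from PAX2 (1.57 ± 0.0836 TPM) and WT1 (4.46 ± 0.565 TPM) to NEFM (99.97 ± 1.15 TPM) and VIM (401 ± 8.62 TPM). None of the 11 markers of blood, endothelium and mature kidney did, and HBB, CD3E, CLDN5, UMOD and AQP2 were listed at 0. Of the 21990 symbols tested, 58.5% were called above 1 TPM and 33.9% below it.

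The members were abundant as a set, with CAT the exception. Their levels summed to 4252 ± 12.4 TPM, or 0.425% ± 0.00124 of all TPM. PRDX1 was the highest, at rank 136 of 19802 protein-coding symbols. TXN, SOD1, PRDX2 and PRDX6 followed at ranks 196, 202, 260 and 354, then PRDX4, PRDX3 and PRDX5 at 435, 442 and 460. SOD2 stood at rank 1221 and CAT at rank 5742. All 10 members lay above 1 TPM by limma's moderated one-sample test with Benjamini-Hochberg adjustment (adjusted p from 2.9e-10 to 6.24e-07), a call made for 58.5% of the 21990 symbols tested. Above 100 TPM lay 9 members (adjusted p from 2.04e-08 for PRDX1 to 0.000333 for SOD2), where 7.03% of all tested symbols were called, and CAT lay below it (adjusted p = 1.49e-05, called below for 92.2%).

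**Figure D1:**
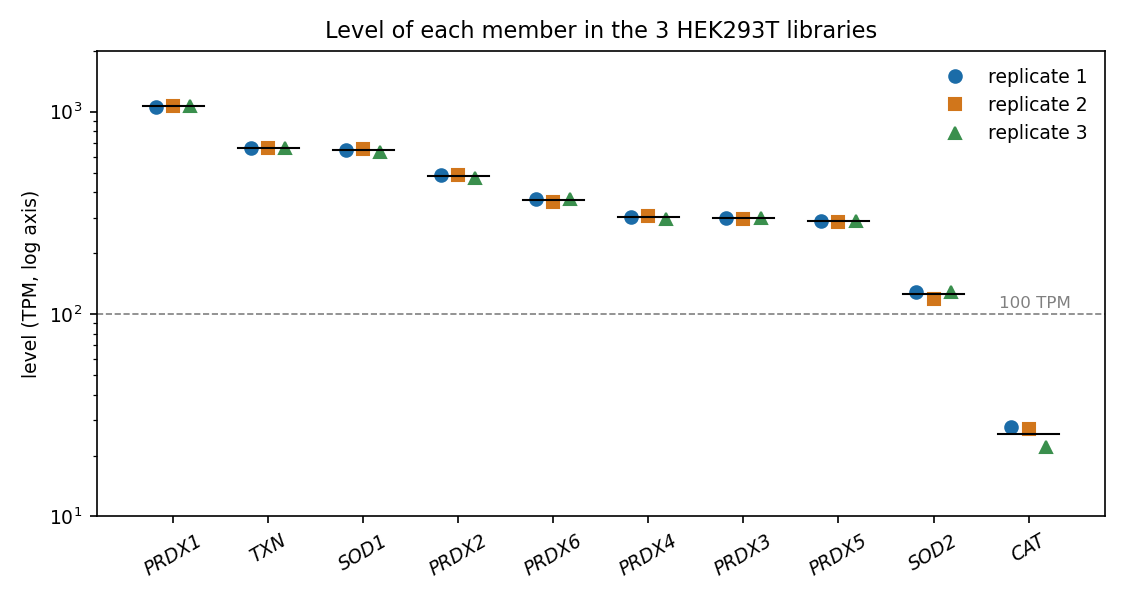
Level of each member (TPM, log axis) in the 3 HEK293T libraries, ordered by mean; symbols mark the replicates, horizontal bars the mean, and the dashed line 100 TPM. The libraries lie close together for every member except CAT, whose replicate 3 sits at 22.0 TPM, below 27.8 and 27.1 TPM in replicates 1 and 2.

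PRDX1 (chr1:45511036-45523047, minus strand, hg38 as for all positions below unless stated), a typical 2-Cys peroxiredoxin of the cytosol and nucleus, had 1056, 1062 and 1068 TPM in replicates 1, 2 and 3 (CV 0.543%). PRDX2 (chr19:12796820-12801859, minus strand), its cytosolic relative and a major protein of red blood cells, had 485, 487 and 472 TPM. The ranges of this pair were far apart in every library: PRDX1 exceeded PRDX2 by 2.21 ± 0.0469-fold (log2 difference 1.14, SE 0.0170, limma adjusted p = 5.33e-08), a position above PRDX2 held by 1.16% of the 21989 genes compared with it. PRDX1 alone made up 38.0% ± 0.228 of the summed peroxiredoxin level of 2796 ± 5.10 TPM, and PRDX2 17.2% ± 0.301.

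PRDX3 (chr10:119167703-119178833, minus strand), the peroxiredoxin of the mitochondrial matrix, had 299.6, 295 and 299 TPM. PRDX4 (chrX:23664262-23686399, plus strand), which enters the endoplasmic reticulum and can be secreted, had 302, 304 and 297 TPM. PRDX5 (chr11:64318088-64321811, plus strand), an atypical 2-Cys enzyme found in mitochondria, peroxisomes and the cytosol, had 288, 286 and 289.9 TPM. These 3 genes thus had means between 288 and 301 TPM, and the ranges of PRDX4 and PRDX3 overlapped. PRDX4 was not called different from PRDX3 (log2 difference 0.01, 95% interval -0.0250 to 0.0523, limma adjusted p = 0.443). PRDX3 exceeded PRDX5 by 1.04-fold in 3 of 3 libraries (log2 difference 0.05, SE 0.0116, limma adjusted p = 0.00971; 2.05% of genes were called above PRDX5). That small difference was not called without replicate 1 (adjusted p = 0.0513) or when limma's mean-variance trend was left out (0.181). PRDX1 exceeded PRDX4 by 3.53-fold and PRDX3 by 3.56-fold in all 3 libraries (limma adjusted p = 3.34e-08 and 7.58e-08), where 1.94% and 1.96% of genes lay above PRDX4 and PRDX3.

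PRDX6, the only 1-Cys member of the human family, which also has phospholipase activity and is reduced mainly through glutathione, had 369, 356 and 372 TPM. PRDX1 stood 2.90-fold above it (limma adjusted p = 3.54e-08; 1.55% of genes were called above PRDX6). Among a list of 55 other redox genes, GPX1 (368 ± 3.42 TPM), the main cytosolic glutathione peroxidase, was nearest in level to PRDX6. It was also the nearest listed gene to PRDX3 and to PRDX4. For PRDX6 this counts all transcripts, and its coding transcript alone had 220.4 TPM. The typical 2-Cys genes PRDX1 to PRDX4 together held 76.6% ± 0.338 of the peroxiredoxin TPM.

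The typical 2-Cys paralogs share the motif around the peroxidatic cysteine, and stretches from PRDX2, PRDX3 and PRDX4 show how far their transcripts can still be told apart there. The 57 bases around that codon, read from the main GENCODE 29 transcript of each gene (capitals mark the cysteine codon, number 51, 108 and 124 of the PRDX2, PRDX3 and PRDX4 reading frames), are as follows.
PRDX2: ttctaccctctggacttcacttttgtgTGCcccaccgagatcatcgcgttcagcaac
PRDX3: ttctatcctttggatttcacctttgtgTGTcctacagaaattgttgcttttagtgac
PRDX4: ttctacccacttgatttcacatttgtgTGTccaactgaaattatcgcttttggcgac
PRDX3 and PRDX4 were identical at 46 of the 57 positions, PRDX2 and PRDX4 at 44, and PRDX2 and PRDX3 at 42. The longest exact run shared anywhere between the main transcripts was 14 bases for PRDX3 and PRDX4, 11 for PRDX2 and PRDX4 and 9 for PRDX2 and PRDX3. PRDX1, also a typical 2-Cys gene, was not included in these comparisons of stretches and runs. None of the 10 members, PRDX1 among them, shared a 31-base word with another member.

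Sequence was shared with other symbols instead, pseudogenes among them. Of the 31-base words of a member's annotated transcripts, from 0% (PRDX4 and CAT) to 17.0% (SOD2) occurred under another symbol. Against symbols above 1 TPM the share was at most 8.48%, again for SOD2. Words were compared on the transcript strand only, so sequence shared with transcripts of the opposite strand was not counted. Of 21 pseudogene symbols named after a member, 17 were listed at 0 in every library. The highest was TXNP4 with 1.03, 0 and 3.13 TPM, followed by SOD1P1 (0, 0.351 and 0 TPM), PRDX2P3 (0.113, 0.110 and 0.111 TPM) and PRDX3P1 (0.0767, 0 and 0 TPM). Adding them would change no member's mean by more than its SD. TXNP4 was the only symbol above 1 TPM that shared words with TXN, 46 of 1139.

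Each peroxiredoxin apart from PRDX6 was carried by a single main transcript. The same transcript was the most abundant in all 3 libraries for each of the 10 members. It held 96.0% ± 0.252 of PRDX1, 96.3% ± 0.139 of PRDX2, 98.5% ± 0.418 of PRDX3 and 98.3% ± 0.384 of PRDX4. PRDX5 had 89.3% ± 0.952 in its full-length transcript of 893 bases, and shorter coding forms of 596 and 463 bases held 5.72% ± 0.250 and 4.97% ± 0.702. The median main-transcript share was 96.2% over the 10 members and 55.0% over 9383 protein-coding genes that had several transcripts and reached 5 TPM, a description without a test. Those genes had a median of 8 listed transcripts, whereas the members had 3 to 6, apart from SOD2 with 15. The shares were not matched for the number of transcripts or for level.

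PRDX6 (chr1:173477266-173488807, plus strand, hg38) had its estimated TPM divided between a coding and a non-coding form. Its coding transcript ENST00000340385 had 221, 219 and 222 TPM, or 60.2% ± 1.01 of the gene. ENST00000470017, an 859-base form annotated as a processed transcript without a reading frame, had 137, 129 and 139 TPM, or 36.9% ± 0.532. The split was alike in every library. ENST00000460950, of the same class, held 2.83% ± 0.483. By estimated reads the coding form held 78.1% and the 859-base form 20.4%, since TPM divides reads by the effective length of each form. The SD between libraries does not measure error in assigning reads between forms that overlap, here or for SOD2 and CAT. Of the 9383 genes, 18.7% had a lower coding share than PRDX6. Counted by its coding transcript alone, PRDX6 would stand at 220.4 TPM, below PRDX5 at 257 TPM when counted by its main transcript.

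**Figure D2:**
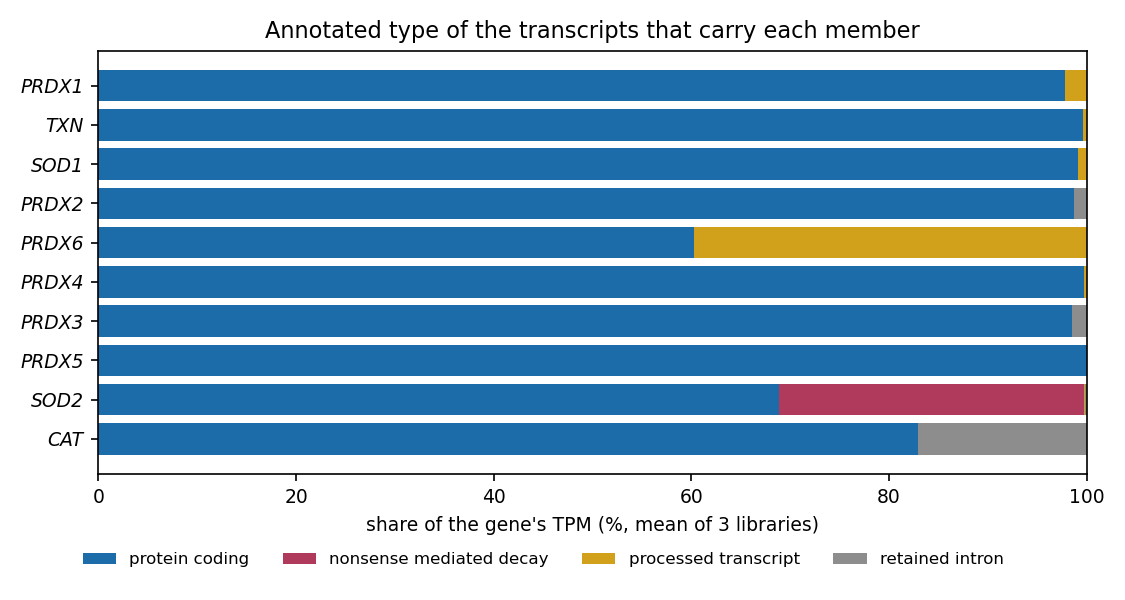
Share of each member's TPM (percent, mean of 3 libraries) in transcripts of each annotated type, members ordered by level. PRDX6 (39.8% processed transcript), SOD2 (30.8% nonsense-mediated decay) and CAT (17.1% retained intron) stand apart from the 7 members with at least 97.8% in coding transcripts.

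SOD1 (chr21:31659622-31668931, plus strand), the copper and zinc dismutase of the cytosol and intermembrane space, had 650.1, 653 and 629.7 TPM. SOD2, the manganese dismutase of the mitochondrial matrix, had 128, 119 and 128 TPM. The cytosolic enzyme's transcript was the higher in every library, by 5.16 ± 0.312-fold (log2 difference 2.37, SE 0.0486, limma adjusted p = 7.89e-09; 5.21% of genes were called above SOD2). SOD1 held 83.7% ± 0.807 of their sum. Both values count all transcripts, of which coding ones held 68.9% ± 1.09 of SOD2's TPM and 99.1% ± 0.116 of SOD1's. The pair was not tested on coding transcripts alone. CCS, the chaperone that loads copper into SOD1, had 41.1, 38.0 and 36.2 TPM, and SOD1 stood 16.8 ± 0.863-fold above it (limma adjusted p = 1.4e-11; 17.9% of genes lay above CCS). SOD3, the secreted dismutase, lay below 1 TPM at 0.0530 ± 0.0184 TPM. SOD1 was carried almost wholly by ENST00000270142, at 99.1% ± 0.116 of its TPM.

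SOD2 was the member with the most divided transcripts. Of its 15 listed transcripts, 3 were at 0 in every library. ENST00000367055, a 990-base coding form, had 52.1, 49.5 and 53.4 TPM, or 41.3% ± 0.694 of the gene. ENST00000546260, a 4302-base form annotated for nonsense-mediated decay, had 40.2, 37.9 and 37.5 TPM, or 30.8% ± 1.41. The order of these forms depended on the measure: the 4302-base form held 62.0% of SOD2's 6289.5 estimated reads and the 990-base form 15.3%. A coding form of 14266 bases, ENST00000538183, held 2.36% ± 0.206 of the TPM but 15.8% of the reads. The pair of leading forms has annotated starts at 159693234 and 159693241 and the same annotated end at 159679064, on the minus strand of chromosome 6 (hg38). ENST00000545162, a coding form of 571 bases, held 12.0% ± 1.24, and ENST00000337404, of 991 bases, 8.74% ± 1.41. Counted by its most abundant transcript alone, SOD2 would stand at 51.7 TPM in place of 125 ± 5.65 TPM, that is, below 100 TPM. On the opposite strand, WTAP (94.2 TPM) overlaps the annotated SOD2 locus. ACAT2 (80.2 TPM), also on that strand, overlaps only a separate gene identifier with the same symbol. Whether counting used strand is not given in the sources used here.

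**Figure D3:**
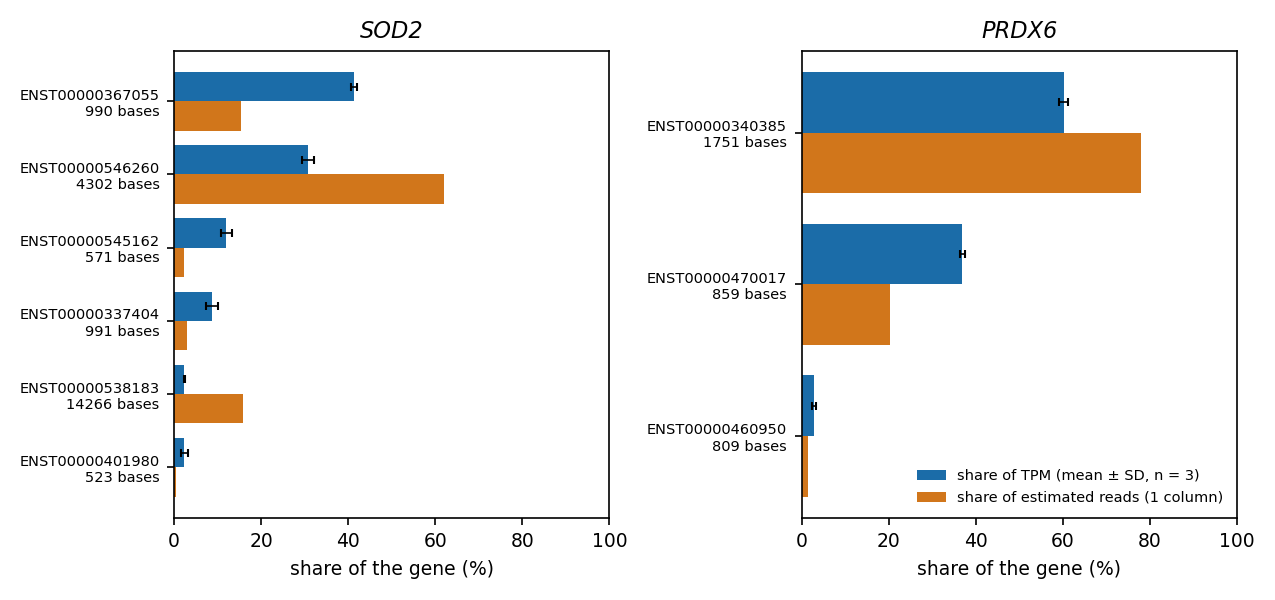
Share of SOD2 (left) and PRDX6 (right) in each transcript with at least 2% by either measure, as percent of the gene's TPM (mean ± SD, n = 3) and as percent of the estimated reads in the single deposited column. For SOD2 the 4302-base form leads by reads (62.0%) and the 990-base form by TPM (41.3%), whereas for PRDX6 the 1751-base coding form leads by both.

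Most SOD2 TPM was assigned to transcripts whose annotated starts form a single cluster, in which each start lies within 1000 bases of the next. Use of the starts themselves was not measured. The 9 transcripts with starts between 159692078 and 159693328 had 106, 100.3 and 107 TPM, or 83.5% ± 1.25 of the gene and 96.2% of its reads. A cluster farther upstream, with 3 starts between 159726944 and 159727357, had 21.9, 17.1 and 18.8 TPM, or 15.4% ± 1.46 of the TPM, but 2.90% of the reads, all in forms of at most 571 bases. The start at 159762529, annotated under a separate gene identifier with the same symbol, had 1.12 ± 0.132 TPM. RefSeq promoter windows (250 bases before to 50 after a start, GRCh38.p14) were matched for 7 of the 10 members, in 11 windows. PRDX1, PRDX6 and SOD1 had no match. A window at each of the SOD2 start clusters with the most assigned TPM is shown, with capitals marking GGGCGG (the GC box) on either strand, where neighbouring matches may overlap.
SOD2 near start, chr6:159693192-159693491, minus strand: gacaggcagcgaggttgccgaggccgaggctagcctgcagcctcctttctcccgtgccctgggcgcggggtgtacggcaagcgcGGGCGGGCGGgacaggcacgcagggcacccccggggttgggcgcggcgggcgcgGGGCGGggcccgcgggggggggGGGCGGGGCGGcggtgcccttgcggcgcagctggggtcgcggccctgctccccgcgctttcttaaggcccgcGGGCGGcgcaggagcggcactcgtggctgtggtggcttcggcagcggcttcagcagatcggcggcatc
SOD2 upstream start, chr6:159727335-159727634, minus strand: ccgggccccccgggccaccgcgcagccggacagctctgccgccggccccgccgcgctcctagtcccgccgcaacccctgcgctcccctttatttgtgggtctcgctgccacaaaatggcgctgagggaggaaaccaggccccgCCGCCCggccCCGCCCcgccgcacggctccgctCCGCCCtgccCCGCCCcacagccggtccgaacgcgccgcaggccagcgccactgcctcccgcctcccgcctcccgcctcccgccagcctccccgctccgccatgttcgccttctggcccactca
The near window held 6 matches to GGGCGG and the upstream window 4, and neither held TATAAA. Over the members, GGGCGG occurred in 11 of 11 windows, against 44.95% of all 35116 windows in the table. These windows are not separate observations, since several belong to SOD2 and those of PRDX5 overlap each other. Their GC content ran from 61.3% (PRDX3) to 78.3% (SOD2 near start), and the share over all windows was not matched for it. TGACNNNGC, the core letters of the antioxidant response element, occurred in 0 of 11 windows on either strand, against 13.3% of all windows. These counts describe letters in short windows only.

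CAT (chr11:34438925-34472062, plus strand), the peroxisomal enzyme that splits hydrogen peroxide without a thiol donor, was the lowest member, with 27.8, 27.1 and 22.0 TPM. SOD2, the next above it, stood 4.90-fold higher (limma adjusted p = 7.54e-61, and 2.79e-06 when the variances of both genes came from the fit over all genes; 23.3% of genes were called above CAT). CAT held 0.804% ± 0.0989 of the summed TPM of CAT, GPX1 and the 6 peroxiredoxins. Relative to GPX1 its log2 difference was -3.85 (SE 0.0768, limma adjusted p = 3.29e-07; 98.3% of genes lay below GPX1), and relative to SOD1 -4.66 (SE 0.0648, adjusted p = 2.55e-08; 99.1% lay below SOD1). The genes that import catalase into peroxisomes were all above 1 TPM, with its receptor PEX5 at 39.6 ± 1.76 TPM, PEX14 at 26.8 TPM and PEX13 at 13.6 TPM. The CAT window, shown because CAT stood lowest, held 1 match to GGGCGG and none to TATAAA.
CAT, chr11:34438684-34438983, plus strand: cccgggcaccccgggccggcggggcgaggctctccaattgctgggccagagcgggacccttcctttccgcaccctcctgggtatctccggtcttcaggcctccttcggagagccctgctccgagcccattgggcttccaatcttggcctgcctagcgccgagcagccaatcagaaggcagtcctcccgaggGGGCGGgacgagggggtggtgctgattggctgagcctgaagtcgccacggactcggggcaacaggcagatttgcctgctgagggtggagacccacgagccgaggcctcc

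CAT was also the member that varied most between libraries. Its CV was 12.3%, larger than that of 96.6% of 4853 coding genes within 2-fold of its level, whose median CV was 3.99%. Its coding transcript ENST00000241052 had 20.7, 21.9 and 20.6 TPM, with a CV of 3.56%. The 4 entries annotated as retained introns, each of 354 to 1020 bases, held 25.6%, 19.1% and 6.62% of the gene in replicates 1, 2 and 3. The low value of replicate 3 thus lay in these short entries, of which ENST00000525707 had 2.78, 1.62 and 0 TPM. In the read column they came to 5.47% of CAT's 1086 reads. At the other end, TXN had a CV of 0.294%, with a lower CV in 5.47% of the coding genes near its level, and SOD2 one of 4.52%, with a lower CV in 85.9%.

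**Figure D4:**
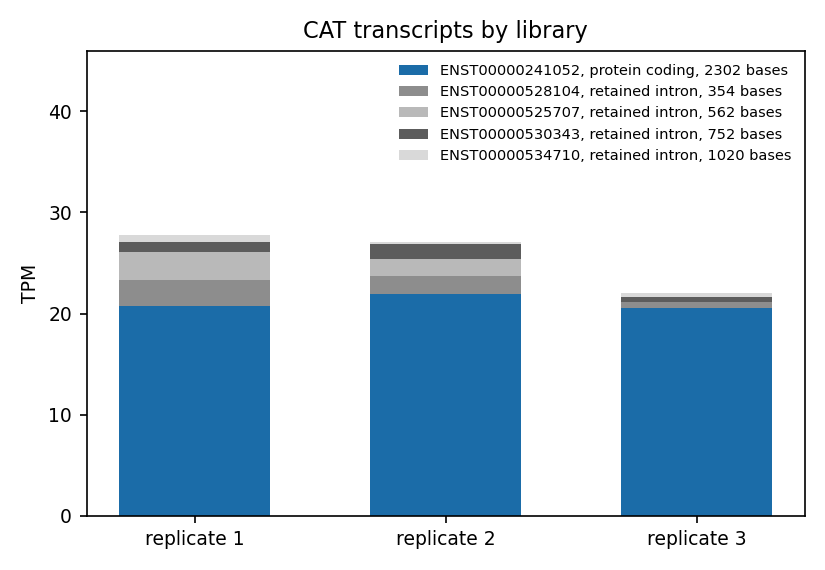
TPM of the 5 CAT transcripts in each library, stacked. The coding transcript (blue) stands at 20.7, 21.9 and 20.6 TPM, and the retained-intron entries (greys) are thinnest in replicate 3.

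TXN (chr9:110243811-110256640, minus strand), the cytosolic dithiol protein that reduces the 2-Cys peroxiredoxins, had 659, 659.6 and 663 TPM. It stood next to SOD1 in the order, without a called difference (1.02-fold, 95% interval of the log2 difference -0.00406 to 0.0751, limma adjusted p = 0.13; 0.891% of genes were called above SOD1), although the ranges did not overlap. The gene of its substrate PRDX1 was higher: TXN relative to PRDX1 had a log2 difference of -0.69 (SE 0.00961, limma adjusted p = 1.28e-07; 99.4% of genes lay below PRDX1). TXN2, the mitochondrial thioredoxin, had 118, 117 and 118 TPM, so TXN exceeded it by 5.60 ± 0.0290-fold (limma adjusted p = 5.64e-08; 5.78% of genes lay above TXN2). PRDX3, the main substrate of TXN2, stood 2.53 ± 0.0118-fold above TXN2 (adjusted p = 6.06e-07).

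Thioredoxin's partners were lower than TXN itself. TXNRD1, the cytosolic reductase and a selenoprotein, had 137, 129 and 126 TPM, and TXN stood 5.06 ± 0.239-fold above it (limma adjusted p = 7.12e-09; 4.97% of genes lay above TXNRD1). TXNIP, a glucose-responsive protein that binds and inhibits thioredoxin, had 12.4, 12.1 and 12.9 TPM, and TXN stood 53.0 ± 1.45-fold above it (limma adjusted p = 2.18e-09; 36.8% of genes lay above TXNIP). TXN was carried by ENST00000374517 at 99.5% ± 0.0508 of its TPM. Its promoter window was the only member window with TATAAA, which overlaps on both strands (capitals mark TATAAA and GGGCGG), where 11.5% of all windows hold it.
TXN, chr9:110256458-110256757, minus strand: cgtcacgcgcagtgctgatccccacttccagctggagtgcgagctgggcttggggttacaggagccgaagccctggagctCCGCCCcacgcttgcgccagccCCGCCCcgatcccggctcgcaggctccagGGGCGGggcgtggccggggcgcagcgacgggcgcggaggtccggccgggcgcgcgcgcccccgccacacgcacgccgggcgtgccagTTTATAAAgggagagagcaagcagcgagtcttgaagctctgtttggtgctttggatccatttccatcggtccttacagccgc

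Among neighbours in the order of the 10 members, 7 of 9 pairs were called different and 2 were not, TXN with SOD1 and PRDX4 with PRDX3. The order itself fixed which gene of each pair was the higher. PRDX1 exceeded TXN by 1.61-fold (0.873% of genes were called above TXN), SOD1 exceeded PRDX2 by 1.34-fold, PRDX2 exceeded PRDX6 by 1.32-fold and PRDX6 exceeded PRDX4 by 1.22-fold (limma adjusted p from 1.05e-07 to 9.96e-05). These folds count all transcripts of a gene. By main transcripts alone, PRDX6 would stand at 220.4 TPM, below PRDX4 at 295.8 TPM, an order that was not tested. A wider gap followed PRDX5, which stood 2.30-fold above SOD2 (adjusted p = 7.71e-08), and the widest separated SOD2 from CAT. In these fits every gene is set against the same lower gene and shares its spread, so the adjusted p-values are not independent of each other. That spread rests on 3 libraries, yet the pooling over all genes treats it as well known. The SE and adjusted p-values of these fits, and of the fixed pairs above, therefore do not carry its uncertainty and are not exact. With the variances of both genes taken from the fit over all genes, the same 7 neighbours were called. The size of the limma adjusted p-values depended on this choice. It went from 7.54e-61 to 2.79e-06 for SOD2 over CAT, and from 1.05e-07 to 7.64e-11 for PRDX1 over TXN.

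Other genes of the redox network were described by their role. Limma's test placed 43 of 55 other genes listed by role above 1 TPM and 8 below it. It left 1 undecided, and 3 were listed at 0. Above 100 TPM lay 8 of the 55. Over all tested symbols, 58.5% lay above 1 TPM, 33.9% below it and 7.03% above 100 TPM. All 8 genes of the thioredoxin system lay above 1 TPM, from TXNRD3 (10.8 TPM) to TXNDC17 (234 TPM). The 4 genes that repair overoxidised peroxiredoxins or belong to the sestrins also passed, from SESN3 at 9.49 TPM to SESN2 at 36.4 TPM, with the sulfiredoxin gene SRXN1 at 28.3 ± 0.793 TPM. Of the partners of superoxide dismutases, the copper carrier ATOX1 was highest at 109.8 ± 4.77 TPM, called above 100 TPM (adjusted p = 0.00827) but not without replicate 2 (0.0658) or without the trend (0.0559).

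Glutathione peroxidases spanned a wide range. GPX4, which reduces phospholipid hydroperoxides, had 537 ± 3.91 TPM and GPX1 368 TPM, GPX3 and GPX8 stood at 30.4 and 31.7 TPM, GPX2 and GPX7 lay below 1 TPM (0.142 and 0.0413 TPM), and GPX5 and GPX6 were listed at 0. All 8 genes of glutathione synthesis and glutaredoxins passed 1 TPM, from GLRX at 22.5 TPM to GLRX3 at 144 TPM. So did all 8 NRF2 regulators and targets, with the transcription factor gene NFE2L2 at 31.3 TPM, its repressor KEAP1 at 60.3 TPM and the target NQO1 lowest at 9.12 TPM. The 4 methionine sulfoxide reductases ranged between 3.13 TPM (MSRA) and 43.9 TPM (MSRB1).

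NADPH oxidases make superoxide or peroxide as their product, and their genes were low apart from CYBA. Of 8 NADPH oxidase genes, 1 lay above 1 TPM, CYBA at 212 ± 3.60 TPM, which encodes the shared p22phox subunit. Among its catalytic partners, NOX4 and CYBB lay below 1 TPM, at 0.122 ± 0.0670 and 0.125 ± 0.0146 TPM. The oxidase genes NOX5 (0.0693 TPM) and DUOX2 (0.0206 TPM) also lay below 1 TPM. NOX3 was listed at 0. NOX1 had 0.188, 0 and 0 TPM and its call below 1 TPM was lost without replicate 2 or replicate 3 (adjusted p = 0.0681 and 0.0603). DUOX1 was undecided, with 1.14, 0.0315 and 2.18 TPM, and its values lay on either side of 1 TPM.

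**Figure D5:**
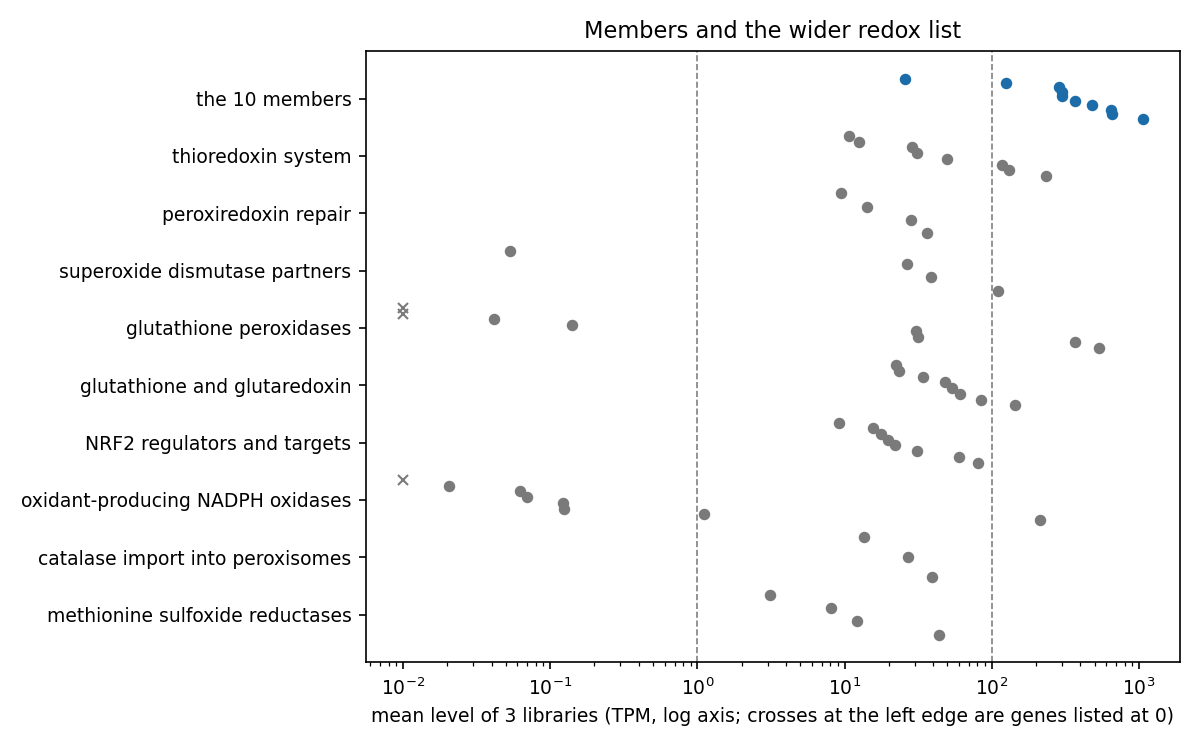
Mean level over 3 libraries (TPM, log axis) of the 10 members (blue) and of 55 other redox genes by role (grey), with dashed lines at 1 and 100 TPM and crosses for genes listed at 0. Of the members, 9 lie to the right of 100 TPM, and of the other genes 8 do.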

How the data were processed

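Per the submitters' processing notes, kallisto and the hg38 build were used. Its version, options, strand setting and transcript release are not given in the sources used here. For each of the 3 libraries the authors deposited TPM, which is scaled per library. The table also held 1 deposited column of estimated counts (expected counts by kallisto) for a library the file headers do not name. Divided by effective length and rescaled, those counts gave replicate 1's TPM back (largest relative difference 1.08e-05). They give no depth for replicates 2 and 3 and were used for read shares only. No other per-sample column was present.

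TPM was summed by gene symbol. Levels were tested with limma 3.58.1 (R 4.3.3) on log2(TPM + 0.01) against 1 and 100 TPM, using the intensity trend and adjusting by Benjamini-Hochberg over the 21990 symbols above 0 in a library, called at adjusted p under 0.05. Folds given without an SD are on that scale, and folds given with ± are means of the TPM ratio within each library. Gene pairs (14 fixed, 9 adjacent) were tested on within-library differences. Every gene was fitted against the lower gene of an adjacent pair or the second gene of a fixed pair. That second gene was the higher for CAT with GPX1, CAT with SOD1 and TXN with PRDX1. Intervals use limma's variances of both genes. Transcript types and positions came from GENCODE 29 (hg38), which matched 50 of the members' 53 transcripts by identifier and 3 without the version. That release may not be the authors'. Promoter windows came from RefSeq. The 31-base words were taken on the transcript strand.

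The members and lists were chosen with earlier results of these data known. Named were all members, their transcripts with at least 5% of the gene or singled out after their values were seen, fixed partners, and the ends of each list, of which 1 gene is not reported here. PEX14, GPX3, GPX8, SRXN1, NFE2L2, KEAP1, VIM, NEFM, PAX2 and WT1 were named after their values were seen. The scripts were tested on simulated data. Alternatives were other pseudocounts, filters, scalings (TMM by edgeR 4.0.16, median of ratios), no trend and leaving out each replicate. The variances of both genes and the spread of CAT's coding transcript were added after the data were seen.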

Additional observations from a re-analysis of the deposited data

How the results depend on the processing

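All 10 members kept their calls against 1 TPM and against 100 TPM under every alternative fitted. SOD2 counted by its main transcript alone stood at 51.7 TPM, which was not tested against 100 TPM. PRDX6 counted by its main transcript alone stood at 220.4 TPM, below PRDX4 counted likewise (295.8 TPM), and that pair was not tested on main transcripts. Of the within-library pairs, PRDX3 over PRDX5 (log2 difference 0.05) was not called without the trend (0.0507, adjusted p = 0.181). Leaving out each replicate in turn gave values between 0.047 and 0.0526, and the call was lost without replicate 1. PRDX4 over PRDX3 ranged between -0.00154 and 0.0277, with the sign turned without replicate 2, and was called in no setting. The cause was not tested. DUOX1 against 1 TPM had log2 differences between -2.21 and 0.65, the highest without replicate 2, and was called in no setting. Symbols called below 1 TPM, 7454 with all tested, numbered 3493 among those with a mean of at least 0.1 TPM and 0 among those of at least 1 TPM, and those below 100 TPM, 20276, numbered 11768 among the same genes, since fewer low genes were tested. Rescaling without mitochondrially encoded genes raised each level alike (PRDX1 to 1137 TPM). TPM gives no depth for replicates 2 and 3, so their counting error is unknown. No paired analysis was possible because the 3 libraries form 1 group, which leaves no samples of another group to pair them with; the gene pairs were compared within each library.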
